A study of Homo sapiens with 8 samples.

Results

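Antigen processing and presentation was described as a set of 38 genes, taken from the deposited tables by symbol. The genes were listed by name, and the list was drawn up with earlier results of these data known. Each symbol matched exactly 1 of the 61125 genes listed. The set holds 6 genes of the class I complex, 11 class II chains and chaperones, 9 genes of peptide transport, trimming and loading, 5 proteasome genes, 5 transcriptional regulators and 2 class I-like genes.

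Class I molecules, a heavy chain paired with beta 2-microglobulin, display peptides cut in the cytosol by the proteasome, pumped into the endoplasmic reticulum by the TAP transporter, trimmed by ERAP peptidases and loaded with the help of tapasin. Class II molecules display peptides cut in endosomes, and are held empty by the invariant chain CD74 until HLA-DM exchanges its remnant for peptide. CIITA switches on class II genes and NLRC5 class I genes, each on promoters held by the RFX complex, and interferon gamma is a known inducer of both branches in monocytic cells.

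RNA was sequenced from U-937, a human pro-monocytic line from a histiocytic lymphoma and therefore 1 genetic background, after 72 h of treatment. There were 4 groups of 2 libraries, replicates 1 and 2. Cells received vehicle (PBS with DMSO), 250 µM L-ascorbic acid (LAA, vitamin C), 1 µM all-trans retinoic acid (ATRA, the vitamin A metabolite that activates retinoic acid receptors and drives myeloid differentiation), or LAA+ATRA at the same doses. Nothing in the labels says whether the libraries of a group came from separate cultures, so the tests reflect variation among the sequenced samples alone, and that variation could be technical.

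Library totals were 18462552 to 24166770 estimated counts, and 14995 genes passed the low-count filter and were tested. Levels are given as CPM, counts scaled to a common library total, and levels of different genes are compared as FPKM, which is per length. Ratios of counts between genes do not correct for length and serve only to compare libraries. The 10 pro-monocytic markers summed to between 3847 and 4103 CPM in vehicle, 4404 to 4524 with LAA, 9059 to 9694 with ATRA and 10563 to 11471 with LAA+ATRA. The monocyte co-receptor CD14 was near 0, at 0 to 8 counts per library, as was the granule enzyme MPO, at 3 to 15 counts. The 6 T cell markers summed to at most 1.01 CPM in any library, and CD3D, CD3E and CD8A were at 0 in all groups. In bulk RNA, fewer cells of a type and less RNA per cell cannot be told apart.

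Of the 38 genes, 31 passed the filter and 7 did not. HLA-DQA1 and HLA-DOA had no count in any library, where a count of 0 allows up to 3 counts, or 0.129 to 0.168 CPM depending on the library. Across all 8 libraries together HLA-DQB1 and HLA-G each had 3 counts, HLA-DPA1 28, HLA-DPB1 34 and HLA-DMB 47. In vehicle the most abundant of the set per length was B2M at 2294 ± 6.03 FPKM (SD, n = 2), followed by the lectin chaperone CALR at 896 ± 28.3 FPKM, HLA-B at 791 ± 20.8 FPKM and HLA-C at 695 ± 0.964 FPKM. The class II beta chain HLA-DRB1 stood at 19.5 ± 0.679 FPKM and its alpha partner HLA-DRA at 1.63 ± 0.475 FPKM. CD74 was at 77.6 ± 7.31 FPKM and the regulator CIITA at 1.07 ± 0.0869 FPKM. Some genes of the class I branch were scarce in vehicle, among them TAPBPL at 3.51 FPKM, HLA-F at 2.44 FPKM and ERAP2 at 1.58 FPKM. Others were well above these, such as PDIA3 at 416 FPKM, HLA-E at 98.2 FPKM, TAPBP at 45.8 FPKM and TAP1 at 27.2 FPKM. Of the 9 class II chains, 6 had too few counts to test. HLA genes are close copies of one another and vary between people, so how the authors' counting split reads between HLA-B, HLA-C, HLA-E, HLA-F and HLA-G, or between HLA-DRB1 and its copies, is uncertain. In GENCODE 29 (GRCh38) the HLA-B gene model on chromosome 6 (31269491 to 31357188, minus strand) also overlaps HLA-C (31268749 to 31272130, minus strand).

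With ATRA, 17 of the 31 tested genes rose against vehicle and 2 fell (edgeR quasi-likelihood test, adjusted p under 0.05), where 42.9% of all tested genes changed, 21.9% higher and 21% lower. The median log2 fold change over the 31 was 0.59, against -0.00 over all genes tested. All 5 tested genes of the class I complex rose, as did 4 of 5 proteasome genes, 4 of 9 genes of transport, trimming and loading, 2 of 5 class II genes and both class I-like genes. Among the 5 regulators none rose and 2 fell. The genes that passed include only those abundant enough to test, so these counts do not describe all 38.

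**Figure D1:**
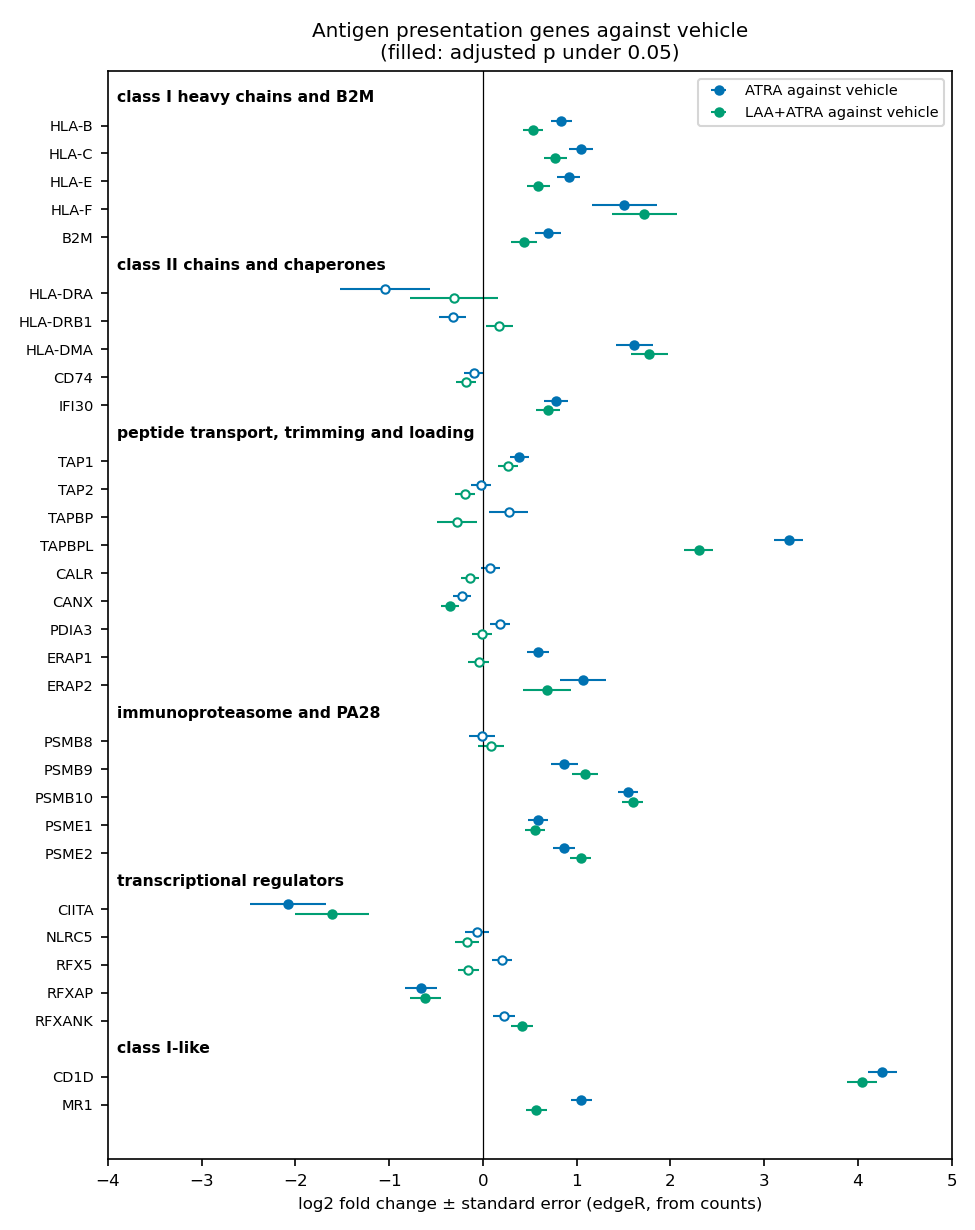
Log2 fold change ± standard error for the 31 tested genes, ATRA against vehicle and LAA+ATRA against vehicle, grouped by role, with filled points at an adjusted p under 0.05. CD1D at 4.26 and TAPBPL at 3.26 lie farthest to the right with ATRA, and CIITA at -2.08 farthest to the left.

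The class I complex rose as a block. HLA-C, a classical heavy chain that presents peptide to T cells and to receptors of natural killer cells, was at 909 and 912 CPM in vehicle, 812 and 911 with LAA, 1880.2 and 1880.2 with ATRA, and 1755 and 1349.7 with LAA+ATRA. All 4 libraries with ATRA lay above all 4 without it, and the increase with ATRA over vehicle was 2.06-fold (log2 1.05 ± 0.12 SE, adjusted p = 2.93e-05). HLA-B, the other classical heavy chain of the set, was at 1009.6 and 1055 CPM in vehicle, 921 and 1015 with LAA, 1782 and 1909 with ATRA, and 1614 and 1382 with LAA+ATRA. It had the same order of groups, with an ATRA increase of 1.79-fold (log2 0.84 ± 0.11, adjusted p = 5.5e-05).

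HLA-E, which displays leader peptides of other class I chains to the natural killer receptor NKG2A, was at 216 and 224 CPM in vehicle, 165 and 192 with LAA, 411 and 418 with ATRA, and 370.4 and 291 with LAA+ATRA. The groups did not overlap, and the ATRA increase was 1.89-fold (log2 0.92 ± 0.12, adjusted p = 7.9e-05). B2M, the shared light chain, was at 1454 and 1475 CPM in vehicle, 1448 and 1314 with LAA, 1958 and 2770.0 with ATRA, and 1986 and 1983 with LAA+ATRA. Its ATRA libraries were farther apart than those of the heavy chains, and the increase was 1.61-fold (log2 0.69 ± 0.14, adjusted p = 0.00153). Summed over the 6 listed genes, the complex took 0.380% and 0.387% of the counts in the vehicle libraries, 0.348% and 0.354% with LAA, 0.589% and 0.670% with ATRA, and 0.531% and 0.480% with LAA+ATRA.

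HLA-F, a scarce non-classical chain, was at 1.3 and 1.5 CPM in vehicle, 2.08 and 1.68 with LAA, 3.54 and 4.44 with ATRA, and 5.87 and 3.42 with LAA+ATRA. Its counts rose 2.85-fold with ATRA (log2 1.51 ± 0.35, adjusted p = 0.0039). On the FPKM values the same libraries were at 3.65 and 1.22 in vehicle and 3.03 and 6.09 with ATRA, which overlap, and the call was lost (limma on log2(FPKM + 1), log2 0.73, adjusted p = 0.229). The calls of HLA-B, HLA-C and HLA-E held on that scale with and without the filter on low FPKM, and that of B2M held with the filter but not without it (0.67, adjusted p = 0.0634).

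**Figure D2:**
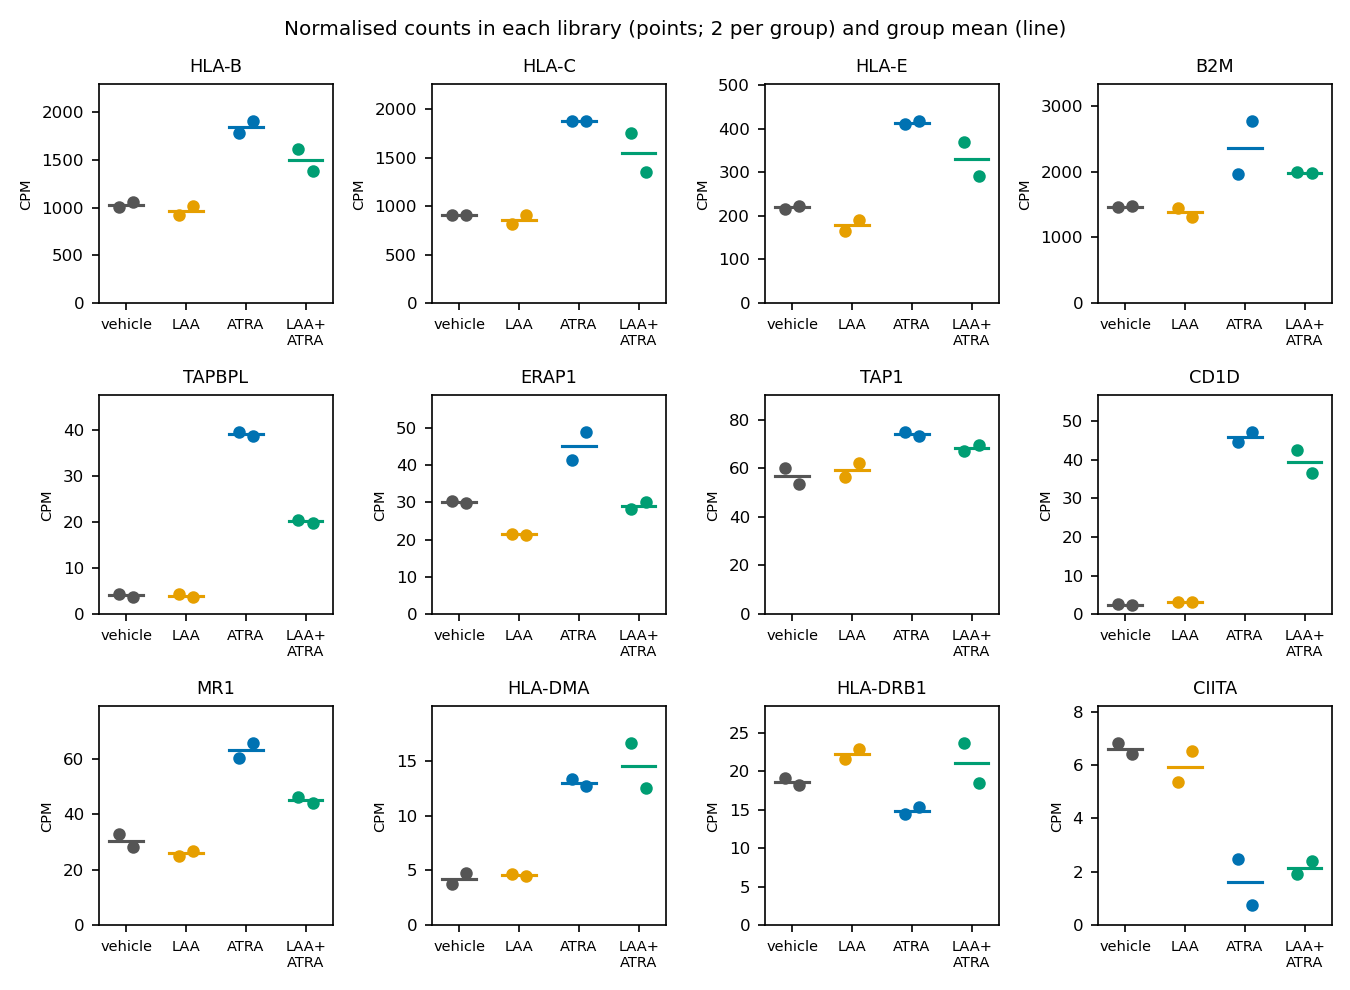
CPM in each library (points, 2 per group) with the group mean (line) for 12 genes, each on its own linear axis from 0. The class I chains HLA-B, HLA-C and HLA-E are high in the 4 libraries with ATRA, TAPBPL is highest with ATRA alone (39.6 and 38.8 CPM), and CIITA is low in both ATRA groups.

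Promoter stretches of B2M and HLA-C are shown because they belong to the light chain and to a classical heavy chain, which both rose. They come from RefSeq on GRCh38.p14, on the strand of the gene, and were ended where an annotated exon begins. For B2M (chr15:44711317-44711486, plus strand) the stretch runs from 200 to 31 bases before the start, with a doubled interferon-response type motif (GAAA, any 2 bases, GAAA) and a CCAAT box (read as ATTGG) in capitals. For HLA-C (chr6:31272131-31272342, minus strand) it runs from 250 to 39 bases before the start, with CCAAT boxes on either strand in capitals.
B2M: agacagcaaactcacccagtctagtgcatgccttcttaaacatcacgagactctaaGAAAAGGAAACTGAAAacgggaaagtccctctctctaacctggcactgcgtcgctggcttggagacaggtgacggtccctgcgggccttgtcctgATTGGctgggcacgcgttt
HLA-C: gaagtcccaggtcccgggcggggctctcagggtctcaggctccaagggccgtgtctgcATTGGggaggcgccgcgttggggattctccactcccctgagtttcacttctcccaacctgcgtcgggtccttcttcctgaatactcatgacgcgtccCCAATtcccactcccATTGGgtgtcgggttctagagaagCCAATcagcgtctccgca

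Class II genes did not move as a block. HLA-DMA, a chain of the peptide exchanger HLA-DM, was at 3.75 and 4.75 CPM in vehicle, 4.66 and 4.47 with LAA, 13.4 and 12.7 with ATRA, and 16.7 and 12.5 with LAA+ATRA. It rose 3.06-fold with ATRA (log2 1.61 ± 0.20, adjusted p = 4e-05), with no overlap between libraries with and without ATRA. Its partner chain HLA-DMB had between 2 and 18 counts per library and could not be tested. IFI30, the lysosomal thiol reductase that unfolds endocytosed proteins, was at 122 and 121 CPM in vehicle, 111 and 129 with LAA, 212 and 204 with ATRA, and 171 and 222 with LAA+ATRA, a rise of 1.71-fold with ATRA (log2 0.78 ± 0.13, adjusted p = 0.000368).

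The peptide-binding chains and their chaperone did not pass. HLA-DRB1 ranged from 14.5 to 23.7 CPM over all libraries, and its log2 fold change with ATRA was -0.32 ± 0.14 (adjusted p = 0.0906). HLA-DRA was scarce, at 0.647 to 1.89 CPM, with -1.04 ± 0.48 (adjusted p = 0.102). CD74 was at 67.7 to 84.7 CPM, with -0.10 ± 0.11 (adjusted p = 0.498) and an interval of about ±2 SE from -0.30 to 0.11. Thus 2 genes acting inside endosomes rose, while no called change was seen in the chains that carry the peptide. The 6 B cell markers, a lineage that expresses class II constitutively, summed to 33.5 to 37.2 CPM in vehicle and 23.8 to 26.7 with ATRA, with MS4A1 at 0 in every group. The 10 dendritic cell markers summed to 19.4 to 21.0 CPM in vehicle and 10.1 to 10.9 with ATRA, with FCER1A, LAMP3 and XCR1 at 0 throughout. Most of that sum in vehicle was BATF3, at 13.8 CPM in vehicle and 4.90 with ATRA, while FLT3 was at 3.70 and 3.35. Only 3 of the 10 were tested, and 1 was called lower. The part of B cell and dendritic cell markers in the class II results was not tested.

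The promoters of HLA-DRB1 and HLA-DMA are shown because these class II genes differ in their response. Both lie on the minus strand of GRCh38.p14 (RefSeq), HLA-DRB1 at chr6:32589849-32590098, from 250 to 1 bases before the start, and HLA-DMA at chr6:32953123-32953347, from 250 to 26 bases before it. Capitals mark the X box core (AGCAAC, any base, GATG), the site class on which the RFX complex sits, and CCAAT boxes in either direction.
HLA-DRB1: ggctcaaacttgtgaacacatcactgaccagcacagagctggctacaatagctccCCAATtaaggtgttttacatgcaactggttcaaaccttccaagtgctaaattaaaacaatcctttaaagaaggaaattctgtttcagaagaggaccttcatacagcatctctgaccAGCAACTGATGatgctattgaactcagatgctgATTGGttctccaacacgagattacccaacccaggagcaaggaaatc
HLA-DMA: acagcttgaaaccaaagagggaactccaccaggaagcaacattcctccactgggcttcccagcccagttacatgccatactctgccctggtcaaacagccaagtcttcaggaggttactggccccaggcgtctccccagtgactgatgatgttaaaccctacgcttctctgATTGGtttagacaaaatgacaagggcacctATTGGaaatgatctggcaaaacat
The X box core in exactly these letters stood in 0.0456% of 35116 promoter windows of the same length, and in 2 of 50 windows of the set, those of HLA-DRB1 and MR1. The letters were not found in the HLA-DMA window.

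The regulators that fell were CIITA and RFXAP. CIITA, the class II transactivator, was at 6.83 and 6.4 CPM in vehicle, 5.36 and 6.51 with LAA, 2.49 and 0.734 with ATRA, and 1.9 and 2.41 with LAA+ATRA. The libraries with ATRA all lay below those without, and CIITA was 4.22-fold lower with ATRA than in vehicle (log2 -2.08 ± 0.41, adjusted p = 0.00137). The size depended on the ATRA libraries: it was -3.15 without ATRA replicate 1 and -1.41 without ATRA replicate 2, and on log2(FPKM + 1) it was -0.63 and not called (limma, adjusted p = 0.0744). RFXAP, a subunit of the RFX complex, was at 11.6 and 9.99 CPM in vehicle, 11.6 and 12.2 with LAA, 6.47 and 7.16 with ATRA, and 6.71 and 7.39 with LAA+ATRA. It was 1.58-fold lower with ATRA (log2 -0.66 ± 0.17, adjusted p = 0.00695), a call lost without vehicle replicate 1 (-0.55, adjusted p = 0.0750).

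RFXANK, the ankyrin subunit of the same complex, was at 70.9 and 67.6 CPM in vehicle, 77.5 and 75.9 with LAA, 78 and 83.7 with ATRA, and 103 and 82.1 with LAA+ATRA. It did not pass with ATRA alone (log2 0.22 ± 0.12, adjusted p = 0.143). RFX5, the DNA-binding subunit, ranged from 50.1 to 70.8 CPM and had 0.20 ± 0.11 (adjusted p = 0.157). NLRC5, the class I transactivator, ranged from 16.6 to 20.2 CPM and had -0.07 ± 0.13 (adjusted p = 0.707), an interval of about ±2 SE from -0.32 to 0.18. In FPKM, NLRC5 was at 5.72 ± 0.393 in vehicle and 6.67 ± 0.144 with ATRA (SD, n = 2 each). Whether NLRC5 had a part in the rise of the class I genes was not tested.

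In the loading compartment TAPBPL stood apart. TAPBPL encodes TAPBPR, a tapasin-related chaperone that edits class I peptides away from TAP. It was at 4.43 and 3.74 CPM in vehicle, 4.32 and 3.68 with LAA, 39.6 and 38.8 with ATRA, and 20.5 and 19.8 with LAA+ATRA. The ATRA libraries were 9.59-fold above vehicle (log2 3.26 ± 0.15, adjusted p = 1.12e-08), and the LAA+ATRA libraries lay between. TAPBP, tapasin itself, ranged from 87.5 to 211 CPM, and its ATRA difference of 0.27 ± 0.21 on the log2 scale did not pass (adjusted p = 0.316). Its ATRA replicate 1 held the highest value of all libraries, and without ATRA replicate 2 tapasin was called higher (0.63, adjusted p = 0.00613). In estimated counts, TAPBPL stood at 0.0275 to 0.0493 of TAPBP in the 4 libraries without ATRA and at 0.164 to 0.326 in the 4 with it, a 6.03-fold difference of the ratio (exact permutation test, two-sided, p = 0.0286, the smallest that 4 against 4 libraries allow, adjusted p = 0.0367 over 9 ratios). All 9 ratios were chosen after the values were seen. Their p-values, here and below, are therefore descriptive and add no independent support to the calls of single genes. The ratio of HLA-C to B2M, not described elsewhere, overlapped between libraries with and without ATRA (1.27-fold, exact permutation p = 0.0857, adjusted p = 0.0964).

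The window 250 to 1 bases before the second annotated TAPBPL start (chr12:6451792-6452041, plus strand, RefSeq GRCh38.p14) is shown because TAPBPL was the loading gene with the largest change. The window lies inside the gene as annotated in GENCODE 29 (6451690 to 6466517), downstream of its first base. Which start the cells used was not tested. None of the 5 motifs searched was found in this or any other TAPBPL window, so the stretch has no capitals.
TAPBPL: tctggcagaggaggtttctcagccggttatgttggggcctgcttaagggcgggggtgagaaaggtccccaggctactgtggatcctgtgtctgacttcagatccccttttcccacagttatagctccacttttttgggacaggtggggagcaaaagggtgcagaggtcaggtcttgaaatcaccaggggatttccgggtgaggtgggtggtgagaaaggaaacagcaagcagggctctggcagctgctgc

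TAP1, a subunit of the peptide pump, was at 60.1 and 53.5 CPM in vehicle, 56.4 and 62.4 with LAA, 75 and 73.5 with ATRA, and 67.1 and 69.6 with LAA+ATRA. It rose 1.31-fold with ATRA (log2 0.39 ± 0.10, adjusted p = 0.00883), a call lost without vehicle replicate 2 (0.30, adjusted p = 0.123). TAP2, the other subunit, ranged from 41.4 to 55.7 CPM and had -0.02 ± 0.11 (adjusted p = 0.891). The pump's subunits moved apart: the TAP1 to TAP2 count ratio was 1.12 to 1.22 without ATRA and 1.49 to 1.66 with it (1.37-fold, exact permutation p = 0.0286, adjusted p = 0.0367).

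The trimming peptidases were called higher with ATRA. ERAP1 was at 30.4 and 29.9 CPM in vehicle, 21.6 and 21.4 with LAA, 41.5 and 49 with ATRA, and 28.1 and 30.2 with LAA+ATRA. Its ATRA increase was 1.5-fold (log2 0.59 ± 0.11, adjusted p = 0.00125), and the LAA+ATRA libraries overlapped vehicle. ERAP2, its partner enzyme on chromosome 5, was at 3.37 and 4.03 CPM in vehicle, 3.23 and 1.94 with LAA, 7.74 and 7.77 with ATRA, and 6.04 and 5.83 with LAA+ATRA. Its counts rose 2.1-fold with ATRA (log2 1.07 ± 0.25, adjusted p = 0.00425), but on FPKM values the difference was 0.12 and not called (limma on log2(FPKM + 1), adjusted p = 0.742).

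Of the chaperones shared with general protein folding, CANX was at 731 and 713 CPM in vehicle, 618 and 619.8 with LAA, 628 and 612 with ATRA, and 530.2 and 600.3 with LAA+ATRA. This lectin chaperone of newly made heavy chains was lowest with LAA+ATRA in CPM but not in FPKM (177 ± 38.3 with LAA+ATRA, 163 ± 3.76 with LAA and 161 ± 9.33 with ATRA, SD, n = 2 each). Its ATRA difference did not pass (log2 -0.22 ± 0.10, adjusted p = 0.0867), though DESeq2 called it lower (-0.22, adjusted p = 0.0429). CANX was called in that comparison without LAA+ATRA replicate 1 (-0.21, adjusted p = 0.0479) and without LAA+ATRA replicate 2 (-0.22, adjusted p = 0.0448). CALR (log2 0.08 ± 0.10, adjusted p = 0.543) and the disulfide isomerase PDIA3 (0.18 ± 0.11, adjusted p = 0.202) did not pass either.

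Among proteasome genes, 2 of the 3 inducible catalytic subunits rose. PSMB10 was at 64.4 and 62.7 CPM in vehicle, 77 and 81 with LAA, 186 and 185 with ATRA, and 209.5 and 175 with LAA+ATRA, and rose 2.92-fold with ATRA (log2 1.55 ± 0.11, adjusted p = 4.2e-07). PSMB9 was at 32.2 and 31.5 CPM in vehicle, 33.6 and 37.8 with LAA, 53 and 63.3 with ATRA, and 77.3 and 58.4 with LAA+ATRA, and rose 1.83-fold (log2 0.87 ± 0.14, adjusted p = 0.000361). PSMB8, the remaining inducible subunit and in vehicle the most abundant of the 3 per length at 204 ± 10.1 FPKM, ranged from 154 to 214 CPM with -0.01 ± 0.14 (adjusted p = 0.968), an interval of about ±2 SE from -0.28 to 0.26. PSMB8 and PSMB9 lie side by side with TAP1 and TAP2 on chromosome 6 (32821833 to 32859585 for the 4 genes in GENCODE 29, GRCh38). PSMB9 overlaps PSMB8 and TAP1 there on the opposite strand. The strand setting of the counting is not given in the sources used here, and without strand such reads cannot be told apart.

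PSME1 and PSME2 encode the alpha and beta chains of PA28, the cap that opens the proteasome core. PSME1 was at 123 and 126 CPM in vehicle, 134 and 139 with LAA, 174 and 201 with ATRA, and 195 and 172 with LAA+ATRA, a 1.5-fold rise with ATRA (log2 0.59 ± 0.11, adjusted p = 0.000761). PSME2 was at 64.6 and 66.5 CPM in vehicle, 93.7 and 90.0 with LAA, 106 and 132 with ATRA, and 138 and 132 with LAA+ATRA, a 1.82-fold rise (log2 0.87 ± 0.11, adjusted p = 7.11e-05). With LAA alone neither PSME1 (edgeR, log2 0.13 ± 0.11, adjusted p = 0.565) nor PSME2 (0.49 ± 0.11, adjusted p = 0.0629) was called against vehicle.

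Each inducible subunit replaces a constitutive one, so the ratio of their counts within a library was compared, a choice made after the values were seen. PSMB9 over PSMB6 was 0.358 to 0.424 in the 4 libraries without ATRA and 0.778 to 0.893 in the 4 with it (2.16-fold, exact permutation p = 0.0286, adjusted p = 0.0367). PSMB10 over PSMB7 was 0.538 to 0.615 without and 1.49 to 2.09 with ATRA (3.06-fold, exact permutation p = 0.0286, adjusted p = 0.0367). PSMB8 over PSMB5 was 2.41 to 2.79 without and 2.65 to 3.18 with ATRA, which overlap (1.10-fold, exact permutation p = 0.114, adjusted p = 0.114). The ratio of RNA counts therefore differed for 2 of the 3 pairs, and protein was not measured. Within the inducible set PSMB9 over PSMB8 differed 1.99-fold and PSMB10 over PSMB8 2.87-fold between libraries with and without ATRA (exact permutation p = 0.0286 each, adjusted p = 0.0367).

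**Figure D3:**
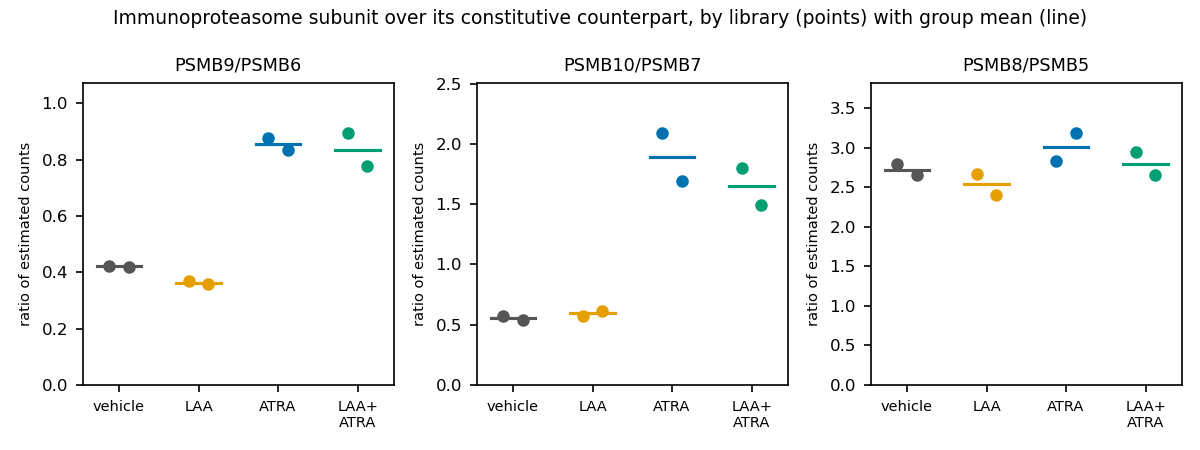
Ratio of estimated counts of each inducible proteasome subunit to the constitutive subunit it replaces, by library (points) with group means (lines), on axes from 0. PSMB9/PSMB6 and PSMB10/PSMB7 are higher in all 4 libraries with ATRA than in all 4 without, while PSMB8/PSMB5 overlaps between them.

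The class I-like genes rose by different amounts. CD1D, which presents lipids to natural killer T cells, was at 2.55 and 2.23 CPM in vehicle, 3.18 and 2.99 with LAA, 44.7 and 47.3 with ATRA, and 42.7 and 36.5 with LAA+ATRA. It had the largest change of the set at 19.2-fold (log2 4.26 ± 0.16, adjusted p = 2.09e-09), or log2 3.20 on the log2(FPKM + 1) scale. MR1, which presents vitamin B metabolites to mucosal-associated invariant T cells, was at 33 and 28 CPM in vehicle, 24.8 and 26.9 with LAA, 60.4 and 65.8 with ATRA, and 46.3 and 44.3 with LAA+ATRA, a rise of 2.07-fold (log2 1.05 ± 0.11, adjusted p = 1.51e-05). Per length, CD1D went from 0.917 ± 0.0053 FPKM in vehicle, below MR1 at 9.57 ± 1.21 FPKM, to 16.7 ± 0.903 FPKM with ATRA, beside MR1 at 18.9 ± 3.02 FPKM (SD, n = 2 each). The CD1D to MR1 count ratio was 0.0774 to 0.128 without ATRA and 0.719 to 0.921 with it (8.24-fold, exact permutation p = 0.0286, adjusted p = 0.0367).

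The CD1D promoter is shown because CD1D changed most of the set. The stretch (chr1:158179697-158179946, plus strand, RefSeq GRCh38.p14) runs from 250 to 1 bases before the start, with a CCAAT box (read as ATTGG) in capitals.
CD1D: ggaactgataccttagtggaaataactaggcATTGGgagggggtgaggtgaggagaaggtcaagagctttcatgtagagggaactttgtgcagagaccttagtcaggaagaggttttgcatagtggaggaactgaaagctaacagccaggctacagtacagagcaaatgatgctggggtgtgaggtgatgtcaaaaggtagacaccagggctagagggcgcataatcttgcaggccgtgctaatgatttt

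Promoter windows of 250 bases were found in the RefSeq table for 33 of the 38 genes (50 windows), and not for HLA-E, HLA-DRA, PDIA3, CIITA and NLRC5. The interferon-response type motif (GAAA, any 2 bases, GAAA), on either strand, stood in 3.02% of 35116 windows of all genes and in 18% of those of the set, or 9 genes. One match per gene is printed with flanking bases to show how alike they are, with that match in capitals (read as TTTC, any 2 bases, TTTC where it lies on the opposite strand). Each is given on the strand of its gene, from RefSeq on GRCh38.p14, and B2M, TAP1 and TAPBP have 2 overlapping matches, of which the second is not capitalised.
B2M (chr15:44711366-44711389, plus strand): actctaaGAAAAGGAAActgaaaa
ERAP2 (chr5:96876463-96876486, plus strand): tagaacaGAAAGTGAAAgcaaaag
HLA-F (chr6:29723271-29723294, plus strand): cccagagTTTCTCTTTCtctccca
PSMB10 (chr16:67936855-67936878, minus strand): taaaggcGAAAGCGAAAgcaggaa
PSME2 (chr14:24146622-24146645, minus strand): ggggagtGAAAGCGAAAgcccggg
RFX5 (chr1:151347190-151347213, minus strand): gaggtagTTTCTCTTTCtccctta
TAP1 (chr6:32853822-32853845, minus strand): cggccgcTTTCGATTTCgctttcc
TAP2 (chr6:32838781-32838804, minus strand): gggaagcGAAAGCGAAAgctgccc
TAPBP (chr6:33314082-33314105, minus strand): tttggagGAAAGTGAAAgtgaaag
Of these 9 genes 6 rose with ATRA, and of the 17 tested genes whose windows lacked the letters 10 rose. Over all tested genes 21.9% rose, a share that was not split by motif, and a link between motif and response was not tested. PSMB10, PSME2 and TAP2 share the core GAAAGCGAAA, and of them PSMB10 and PSME2 rose while TAP2 did not pass. The CCAAT box stood in 32.0% of all windows and 48% of those of the set, the STAT type motif TTCNNNGAA in 6.57% and 8%, and the kappa B type motif (GGG, any 2 bases, TTCCC) in 1.97% and 4%. A match is a description of letters and not a shown binding site.

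No gene of the set passed the test with LAA alone. By edgeR's quasi-likelihood test 0 of the 31 tested genes passed against vehicle, where 0.0267% of all tested genes did. Of the 31, 6 had an unadjusted p under 0.05, against 18.9% of all genes. DESeq2 called 2, where it called 4.69% of all genes, and limma on FPKM called 0 (0.0143% of all genes on log2(FPKM + 1)). The median log2 fold change over the 31 was -0.01, and over all genes 0.01. Closest to the threshold were PSME2, higher in both LAA libraries at 1.40-fold (log2 0.49 ± 0.11, adjusted p = 0.0629), and ERAP1, lower in both at 1.40-fold (log2 -0.49 ± 0.12, adjusted p = 0.0669). These were the genes DESeq2 called (PSME2 adjusted p = 0.00458, ERAP1 adjusted p = 0.0241). With edgeR they were also called without ATRA replicate 1 (adjusted p = 0.0273 for PSME2 and 0.0353 for ERAP1) and without ATRA replicate 2 (adjusted p = 0.0286 and 0.0366). Those libraries enter this comparison only through the shared fit and the low-count filter. Fitted on the vehicle and LAA libraries only, 7 genes of the set were called, adding CANX, HLA-E and TAPBP lower and PSMB8 and PSMB10 higher. That fit called 15.4% of all genes, so calls rose across all genes and not only in the set.

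TAPBPL and ERAP1 were lower when LAA was added to ATRA. Of the 31 tested genes 0 were higher and these 2 lower in LAA+ATRA than in ATRA, where 1.01% of all genes changed, 0.493% higher and 0.52% lower. Of the 31, 10 had an unadjusted p under 0.05, against 18.6% of all genes. The median log2 fold change over the 31 was -0.12, against 0.00 over all genes. TAPBPL was 1.95-fold lower (log2 -0.96 ± 0.13, adjusted p = 0.0194) and held in 13 of 17 alternatives, but was lost, at a like size, on log2(FPKM + 1) (limma, -0.98, adjusted p = 0.0994) and with gene length offsets, which correct each library's counts for the length implied by FPKM (-1.03, adjusted p = 0.0693). ERAP1 was 1.55-fold lower (log2 -0.64 ± 0.11, adjusted p = 0.0337) and held in 4 of 17 alternatives. Its call was lost when any library but ATRA replicate 1 was left out, with log2 values from -0.69 to -0.51 and adjusted p from 0.0551 to 0.108. MR1 came next (log2 -0.48 ± 0.11, adjusted p = 0.0607). Without ATRA replicate 1 B2M was called lower (-0.48, adjusted p = 0.0493), and without ATRA replicate 2 TAPBP was (-0.91, adjusted p = 0.0320). The class I heavy chains HLA-B (-0.30 ± 0.11, adjusted p = 0.156), HLA-C (-0.28 ± 0.12, adjusted p = 0.248) and HLA-E (-0.33 ± 0.12, adjusted p = 0.177) lay below ATRA alone without passing. DESeq2 called MR1 (adjusted p = 0.0144) and HLA-B (adjusted p = 0.0389) lower in this comparison as well.

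Whether LAA acted differently with and without ATRA was tested as an interaction on the log2 scale. By edgeR 0 of the 31 genes passed, where 0.00667% of all genes did, and 2 had an unadjusted p under 0.05 (4.98% of all genes). They were TAPBPL (-0.93 ± 0.22, unadjusted p = 0.000967, adjusted p = 0.662) and CD1D (-0.58 ± 0.22, unadjusted p = 0.0229, adjusted p = 0.944). DESeq2 called 0 and limma on FPKM 0. The lower TAPBPL level in LAA+ATRA is therefore called against ATRA alone, but a difference from its LAA effect without ATRA (-0.03 ± 0.17) is not called.

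**Figure D4:**
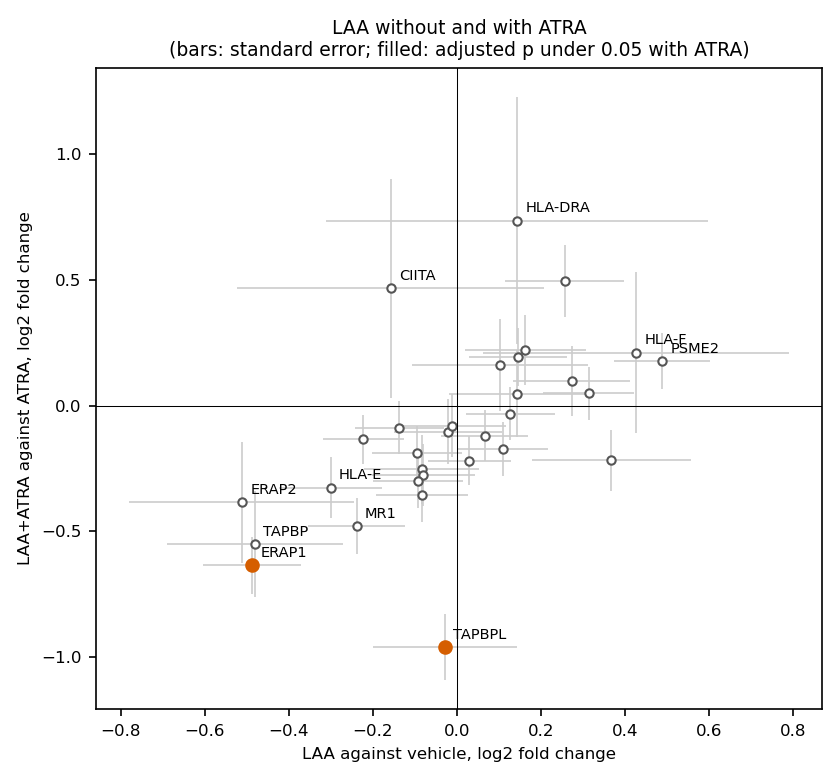
Log2 fold change ± standard error of each tested gene for LAA against vehicle (horizontal) and LAA+ATRA against ATRA (vertical), with filled points at an adjusted p under 0.05 in the latter. TAPBPL lies at -0.03 and -0.96 and ERAP1 at -0.49 and -0.64, and no gene is called on the horizontal axis.

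In the combination, 16 of the 31 genes rose against vehicle and 3 fell, where 44.7% of all genes changed, 23.1% higher and 21.5% lower, and the median log2 fold change was 0.42. This comparison shares the vehicle libraries with that of ATRA alone. ERAP1 (-0.05 ± 0.12, adjusted p = 0.769) and TAP1 (0.27 ± 0.10, adjusted p = 0.0506) were called with ATRA but not here. Leaving out ATRA replicate 1 (0.28, adjusted p = 0.0419) or replicate 2 of that group (0.27, adjusted p = 0.0475) brought TAP1 under the threshold, as did log2(FPKM + 1) (limma, 0.51, adjusted p = 0.0220) and gene length offsets (0.52, adjusted p = 0.0120). RFXANK (0.42 ± 0.12, adjusted p = 0.0115) and CANX (-0.35 ± 0.10, adjusted p = 0.0102) were called here and not with ATRA alone. CANX was far smaller and not called on log2(FPKM + 1) (-0.12, adjusted p = 0.510) or with gene length offsets (-0.11, adjusted p = 0.543). Both calls were lost without vehicle replicate 1 (RFXANK 0.45, adjusted p = 0.0542, and CANX -0.34, adjusted p = 0.0864), vehicle replicate 2 (0.38, adjusted p = 0.0929, and -0.37, adjusted p = 0.0545) or the first LAA+ATRA replicate (0.25, adjusted p = 0.109, and -0.26, adjusted p = 0.0560).

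CD1D was 16.5-fold higher than in vehicle (4.04 ± 0.16, adjusted p = 3.45e-09) and TAPBPL 4.93-fold (2.30 ± 0.15, adjusted p = 3.1e-07). PSMB10 was 3.02-fold higher (1.60 ± 0.11, adjusted p = 4.09e-07) and HLA-DMA 3.42-fold (1.78 ± 0.20, adjusted p = 2.05e-05). HLA-C was 1.71-fold higher (0.77 ± 0.12, adjusted p = 0.000303) and CIITA 3.05-fold lower (-1.61 ± 0.40, adjusted p = 0.00554). The CIITA call was lost on log2(FPKM + 1) (limma, -0.67, adjusted p = 0.0567) and log2(FPKM + 0.1) (-1.58, adjusted p = 0.0564). B2M was higher by log2 0.44 ± 0.14 (adjusted p = 0.0208), and that call ended on leaving out vehicle replicate 1 (adjusted p = 0.107) or its replicate 2 (0.0902), or either LAA+ATRA library (0.0659 and 0.0563 without replicates 1 and 2), with log2 values of 0.43 to 0.45. It was lost on log2(FPKM + 1) as well (limma, 0.37, adjusted p = 0.0984). RFXAP (-0.61 ± 0.17, adjusted p = 0.0104) was lost without vehicle replicate 1 (-0.50, adjusted p = 0.0988) and without LAA+ATRA replicate 1 (-0.54, adjusted p = 0.0613). ERAP2 was called on counts (0.68 ± 0.25, adjusted p = 0.0440), was lost when any vehicle or LAA+ATRA library or ATRA replicate 2 was left out (adjusted p = 0.0514 to 0.212), and on log2(FPKM + 1) lay at -0.10.

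Against LAA alone, LAA+ATRA showed the ATRA response in the presence of LAA. Here 16 of the 31 genes rose and 3 fell, where 36.4% of all genes changed, 18.4% higher and 18% lower, with a median log2 fold change of 0.43. TAP1, called in ATRA against vehicle, had 0.20 ± 0.10 here (adjusted p = 0.147), but 0.42 on log2(FPKM + 1) (limma, adjusted p = 0.0497) and 0.43 with gene length offsets (adjusted p = 0.0325). TAP2, not called in ATRA against vehicle, was called here (-0.30 ± 0.11, adjusted p = 0.0452), and the call held in 3 of 17 alternatives. Its difference was -0.02 on log2(FPKM + 1) (adjusted p = 0.967) and -0.04 with gene length offsets (adjusted p = 0.895). Leaving out any library but LAA replicate 1 or ATRA replicate 2 ended the TAP2 call (adjusted p = 0.0510 to 0.358). The HLA-C rise was 1.8-fold (log2 0.85 ± 0.12, adjusted p = 0.000191), the CD1D rise 12.8-fold (3.68 ± 0.15, adjusted p = 7.05e-09), and CIITA was 2.74-fold lower (-1.45 ± 0.40, adjusted p = 0.0125). The CIITA call was lost on log2(FPKM + 1) (-0.38, adjusted p = 0.261) and log2(FPKM + 0.1) (-1.01, adjusted p = 0.210).

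In that comparison some calls also rested on 1 library. Without LAA replicate 1 the calls of PSME1 (0.41, adjusted p = 0.0693) and ERAP1 (0.45, adjusted p = 0.0658) were lost. Without LAA replicate 2 those of ERAP1 (0.43, adjusted p = 0.0731), B2M (0.46, adjusted p = 0.0923), CIITA (-1.31, adjusted p = 0.0726) and HLA-F (1.15, adjusted p = 0.0754) were lost. Without LAA+ATRA replicate 1 those of CIITA (-1.28, adjusted p = 0.0807) and HLA-F (0.87, adjusted p = 0.105) were lost, and without LAA+ATRA replicate 2 that of ERAP1 (0.39, adjusted p = 0.0602), while RFXANK was then called (0.43, adjusted p = 0.0142).

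For some genes the deposited counts and FPKM values told different things, because the gene length implied by their ratio changed between libraries. Relative to its own mean over the libraries, the implied length of NLRC5 was 1.25 and 1.22 in vehicle, 0.777 and 0.829 with LAA, 1.06 and 0.971 with ATRA, and 0.941 and 1.05 with LAA+ATRA. It was thus 0.649 times as long with LAA as in vehicle, a ratio at or below which 1.49% of the 14995 tested genes lay. NLRC5 counts were similar (19.1 ± 1.57 CPM in vehicle and 18.8 ± 0.937 with LAA, SD, n = 2 each), while its FPKM was 5.72 ± 0.393 in vehicle and 8.66 ± 0.0235 with LAA, a difference limma did not call. On log2(FPKM + 1) NLRC5 was called lower in LAA+ATRA than in LAA (-0.39, adjusted p = 0.0337), where its counts gave -0.15 (adjusted p = 0.405). Implied length varied 3.75-fold between libraries for CIITA, 3.51-fold for HLA-F and 2.48-fold for ERAP2, and 1.06-fold for HLA-B and HLA-C. What changed the implied length was not tested, and transcripts were not analysed here.

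**Figure D5:**
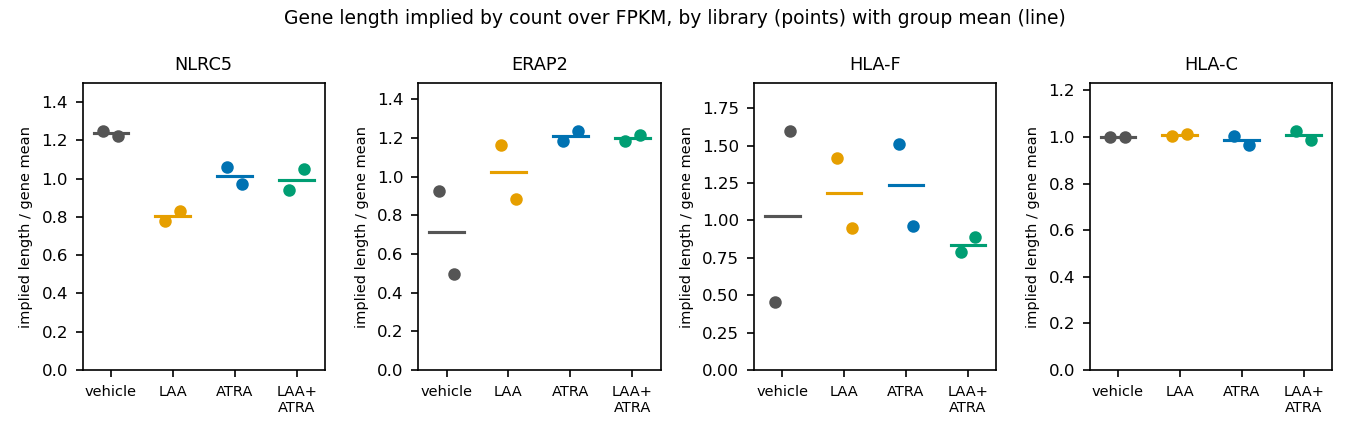
Gene length implied by the estimated count over FPKM, divided by the gene's mean over the 8 libraries, by library (points) with group means (lines), on axes from 0. NLRC5 is shortest in both LAA libraries (0.777 and 0.829), the vehicle libraries of ERAP2 and HLA-F differ from each other, and HLA-C stays near 1 throughout.

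Other genes of the pathway were read from lists of neighbours, for ATRA against vehicle. The share over all tested genes, to be set beside each count, was 42.9% changed, 21.9% higher and 21% lower. Of 10 tested genes of endosomal processing 6 rose and 1 fell (median log2 0.96), among them the proteases CTSD at 10.6-fold (adjusted p = 5.75e-10), CTSS, which degrades the invariant chain, at 2.57-fold (adjusted p = 4.31e-07), CTSZ at 2.15-fold (adjusted p = 2.62e-06) and CTSB at 1.77-fold (adjusted p = 2.28e-05). Of 18 tested genes of the constitutive proteasome, which are core subunits with an assembly factor and other regulators, 0 rose and 1, the core subunit PSMA6, was lower by 1.5-fold (adjusted p = 0.00275), with a median of -0.01 and 3 at an unadjusted p under 0.05. In LAA+ATRA against vehicle 5 of these 18 genes rose and 2 fell (median 0.16), where 44.7% of all genes changed, 23.1% higher and 21.5% lower.

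Of 16 tested entries of interferon signalling 9 rose and 1 fell (median 0.56). Entries rather than symbols are counted in these lists, and a symbol can have more than 1. The interferon gamma gene IFNG had a count of 0 in every group. The interferon-response factor IRF1 was at 15.2 ± 1.73 CPM in vehicle and 138 ± 3.41 CPM with ATRA (SD, n = 2 each), a rise of 9.07-fold (log2 3.18 ± 0.12, adjusted p = 1.9e-09). STAT2 was 2.34-fold (adjusted p = 5.1e-06), IRF9 3.51-fold (adjusted p = 7.22e-05) and the kinase JAK2 2.21-fold higher (adjusted p = 0.000188). Of 12 transcription partners at MHC promoters 4 rose and 1 fell (median 0.17), a share close to the 42.9% of all genes. SPI1 was 2.06-fold (adjusted p = 9.68e-06), KAT2B 2.07-fold (adjusted p = 4.47e-05) and the CCAAT-binding subunit NFYC 1.43-fold higher (adjusted p = 0.0012), and the chromatin remodeller SMARCA4 1.47-fold lower (adjusted p = 0.00239).

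Of 10 costimulatory and coinhibitory genes 7 rose and 2 fell (median 0.73). The inhibitory ligand VSIR was 13.8-fold higher (adjusted p = 3.67e-10), the 4-1BB ligand TNFSF9 3.55-fold (adjusted p = 8.41e-08), the CD28 ligand CD86 9.74-fold (adjusted p = 3.32e-05) and LGALS9 1.72-fold (adjusted p = 6.9e-05). CD86 remained scarce, at 0.435 ± 0.0659 CPM in vehicle and 4.30 ± 0.339 CPM with ATRA. Of 11 genes of folding in the endoplasmic reticulum 4 rose and 2 fell (median -0.11), with the chaperone HSPA5 at 1.92-fold (adjusted p = 2.86e-05), P4HB at 1.21-fold (adjusted p = 0.0355), and PDIA6 (1.32-fold, adjusted p = 0.00434) and PDIA4 (1.29-fold, adjusted p = 0.00835) lower. Of 4 tested class I-like ligands of the stress type MICB rose 1.23-fold (adjusted p = 0.0389) and ULBP1 fell (5.90-fold lower, adjusted p = 0.000178), with a median of 0.16. Neither of the 2 tested class II loci outside the set passed (median -0.05, 0 at an unadjusted p under 0.05).

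By position, 19 of the 38 genes lie on chromosome 6, all within the MHC region from HLA-F at 29722775 to TAPBP at 33314387 (GENCODE 29, GRCh38), and 12 of these were tested. With ATRA 7 of the 12 rose and 0 fell, with a median log2 fold change of 0.61. On other chromosomes all 19 were tested, 10 rose and 2 fell, with a median of 0.59. Over all tested genes 21.9% rose and 21% fell. Genes of the set thus rose on chromosome 6 and elsewhere by similar medians, a description with no test.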

How the data were processed

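Polyadenylated RNA of 8 U-937 libraries was analysed as deposited. Salmon 1.8.0, DESeq2 1.36.0, GRCh38 and hg38 are named, with no role, in the submitters' processing notes. Not given in the sources used here are the annotation, the index, the strand setting and how transcript values became gene values. Estimated counts were deposited unscaled per gene by the authors, 16.5% of them with decimals, and were rounded. The FPKM values are the authors' own, deposited without a statement of their scaling, with gene lengths that differ between libraries.

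Genes were filtered with filterByExpr (14995 of 61125 kept), scaled by TMM (factors 0.928 to 1.06) and fitted with 4 group means over all 8 libraries in edgeR 4.0.16 (R 4.3.3), with 4 residual degrees of freedom. Tests were two-sided quasi-likelihood F tests, adjusted by Benjamini-Hochberg over all genes tested, with calls at an adjusted p under 0.05. CPM uses the TMM-scaled library size. The interaction subtracts the LAA effect without ATRA from that with ATRA. The code was tested on simulated counts. Ratios were compared over 4 against 4 libraries by exact permutation (scipy 1.17.1). Exact motif matches, allowing no mismatch, were counted on both strands in the 250 bases before RefSeq starts (GRCh38.p14), and a motif may overlap another. Positions came from GENCODE 29, which may differ from the authors' annotation.

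Alternatives were DESeq2 1.42.0, RLE size factors, a fit to only the libraries compared, no low-count filter, a block for the replicate number, limma 3.58.1 on log2 FPKM (added constant 1 or 0.1) where a group mean reached 1 FPKM, the same with no such filter, leaving out each library (the lone library of a group is then assumed to vary like the other groups), and, chosen after seeing the data, gene length offsets recovered from counts and FPKM. The members and lists were chosen with earlier results of these data known, and the ratios and motifs after the values were seen. Values in all libraries are given for members called in any comparison, up to 5 per role by smallest adjusted p. List genes are named by up to 4 called genes per list, plus CTSS and IRF1; 1 further gene of that rule is not reported here. Lists not described elsewhere were erythroid markers (at most 0.0970 CPM summed in any library) and fibroblast markers (at most 2.77 CPM).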

Additional observations from a re-analysis of the deposited data

How the results depend on the processing

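Of 1003 alternative values for the 59 calls, 901 kept direction and call, 98 kept direction only and 4 turned direction. The 4 were ERAP2 in LAA+ATRA against vehicle, at -0.10 by limma on log2(FPKM + 1) with or without the filter, -0.12 on log2(FPKM + 0.1) and -0.21 with gene length offsets, and the cause was not tested. Calls that held in every alternative were 13 of 19 for ATRA against vehicle, 11 of 19 for LAA+ATRA against vehicle, 12 of 19 for LAA+ATRA against LAA and 0 of 2 for LAA+ATRA against ATRA. Members called numbered 15 to 20, 13 to 20 and 13 to 19 in the first 3 of these over the alternatives, and 0 in all for the interaction. For LAA against vehicle the count of 0 became 2 with DESeq2, 3 without the low-count filter, 7 with only the libraries compared and 0 to 2 with 1 library left out. For LAA+ATRA against ATRA the count of 2 became 4 with DESeq2, 4 without the filter, 1 with only the libraries compared, 0 on all FPKM settings and with gene length offsets, and 1 to 3 with 1 library left out. In that comparison DESeq2 called 4.64% of all genes and the fit without the filter 3.49%, against 1.01% in the main fit. For LAA against vehicle the fit without the filter called 3.20% of all genes, against 0.0267%. These calls thus rose across all genes and not only in the set. In LAA+ATRA against ATRA the count with the replicate block was 1 (0.200% of all genes). The block lost the calls of ERAP1 there (adjusted p = 0.0582), ERAP2 against vehicle (0.0569) and TAP2 against LAA (0.0578). Replicate numbers carry no stated meaning and same-numbered libraries did not deviate together (correlations -0.0727 to 0.0771), so they were not paired. On log2(FPKM + 1) the changes of scarce genes were smaller, with CD1D at 2.95 in place of 4.04 and TAPBPL at 1.71 in place of 2.30 for LAA+ATRA against vehicle, and CIITA at -0.67 in place of -1.61. An alternative for symbols with several entries was not run, since every member had 1. With 2 libraries per group, HLA-F, ERAP2, CIITA and HLA-DRA, all scarce, had the widest errors.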
